A study of Homo sapiens with 12 samples.

Results

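The report covers 8 genes of epithelial-mesenchymal transition (EMT): SNAI1, SNAI2, TWIST1, TWIST2, ZEB1, ZEB2, VIM and EPCAM. They were taken as the rows of the deposited expression table whose gene column holds one of these symbols, which gave 8 of 24331 features, each symbol having 1 feature. RNA-sequencing was performed on WT MDA-MB-231 cells, a metastatic human breast cancer cell line, and on ΔCRE cells, a derivative of them. The ΔCRE cells lack a part of the core-regulatory element (CRE) of the ETS1 promoter that holds NFAT and NF-κB sites. The paper reports further conserved motifs of both kinds in the part of the CRE that was kept. WT and ΔCRE cells were harvested without stimulation (0 h) and after 6 h and 24 h of PMA/Ionomycin. In it a phorbol ester that activates protein kinase C is combined with an ionophore for calcium. Each of the 6 conditions has 2 biological replicates, which gives 12 libraries. The ΔCRE cells came from transient delivery of Cas9 with a pair of guide RNAs and screening of clones. How many clones the libraries represent is not stated, so the deletion and a clone cannot be told apart. Values are FPKM (fragments scaled to transcript length and to mapped fragments), which are per length and can be compared between genes, and the depth of each library is unknown because FPKM keeps no fragment counts.

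EMT is the programme by which epithelial cells lose junctions and polarity and gain motility. SNAI1 and SNAI2 (Slug) are zinc-finger repressors, ZEB1 and ZEB2 are zinc-finger homeobox repressors, and both families bind E-boxes in the promoters of epithelial genes such as CDH1, which encodes E-cadherin. TWIST1 and TWIST2 are basic helix-loop-helix factors that act on E-boxes as dimers with E proteins. VIM encodes vimentin, the intermediate filament protein of mesenchymal cells, and EPCAM encodes an adhesion molecule of epithelial cells. MDA-MB-231 is known as a cell line with a mesenchymal form, little E-cadherin and abundant vimentin.

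Promoter sequences are shown for VIM, ZEB1 and ZEB2, because these 3 genes rose together at 6 h in WT cells. Each spans 300 bases across a RefSeq transcription start, most of them before it, 5′ to 3′ on the strand of the gene, and each was placed by exact match on GRCh37, the same build as the hg19 genome of the data. Windows were taken for 4 of the 8 genes (TWIST2, VIM, ZEB1 and ZEB2). Those of the remaining genes, SNAI2 among them, were not examined, so nothing is said here about their motifs. For ZEB1, which has 7 starts in the RefSeq table of GRCh38.p14, the start nearest to the deposited feature is used. The ZEB2 start lies 779 bases inside the end of the deposited feature, so its window is not the start of that feature.
VIM, chr10:17269990-17270289, plus strand: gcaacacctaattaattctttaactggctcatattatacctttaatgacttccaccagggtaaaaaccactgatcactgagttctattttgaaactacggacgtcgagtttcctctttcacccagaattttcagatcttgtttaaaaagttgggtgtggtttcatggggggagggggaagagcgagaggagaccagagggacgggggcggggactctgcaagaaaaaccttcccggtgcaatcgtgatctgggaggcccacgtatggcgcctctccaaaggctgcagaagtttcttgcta
ZEB1, chr10:31607895-31608194, plus strand: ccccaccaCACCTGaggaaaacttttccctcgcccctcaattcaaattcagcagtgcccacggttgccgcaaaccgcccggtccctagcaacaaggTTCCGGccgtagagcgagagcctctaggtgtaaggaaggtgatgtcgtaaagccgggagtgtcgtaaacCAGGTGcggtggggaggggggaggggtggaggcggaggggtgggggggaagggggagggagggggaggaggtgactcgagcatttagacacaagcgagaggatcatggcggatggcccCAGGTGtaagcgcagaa
ZEB2, chr2:145277637-145277936, minus strand: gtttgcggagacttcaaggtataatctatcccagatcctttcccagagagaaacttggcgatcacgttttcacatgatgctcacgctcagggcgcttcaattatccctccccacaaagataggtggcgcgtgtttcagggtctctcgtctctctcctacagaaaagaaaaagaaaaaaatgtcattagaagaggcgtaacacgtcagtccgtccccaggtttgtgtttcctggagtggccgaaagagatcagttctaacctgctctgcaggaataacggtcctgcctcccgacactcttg
Capitals mark matches, on either strand, of CACCTG, the E-box form that SNAI and ZEB proteins are known to bind, and of CCGGAA, a core bound by ETS factors. TGANTCA, the AP-1 site, was searched as well and had no match in these windows. Counted from the start at 1, the ZEB1 window held CACCTG at -242 to -237 on the plus strand and at -85 to -80 and 34 to 39 on the minus strand, and CCGGAA at -154 to -149 on the minus strand. The wider E-box pattern CANNTG, which contains CACCTG, matched the same 3 places of ZEB1 and 1 place of ZEB2, at -180 to -175, and the VIM window held none of these motifs. Of 35116 RefSeq promoters of the same length, 20.6% held CACCTG, 68.7% CANNTG, 17.2% CCGGAA and 7.71% TGANTCA. A match is a run of letters and was not tested as a binding site.

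The library labelled ΔCRE 0 h replicate 1 stands apart from all others. The sum of its FPKM values was 1423335, against 566255 to 651080 in the other 11, and the correlation of log2(FPKM + 1) with the other ΔCRE 0 h library was 0.867, against 0.978 to 0.984 between replicates of the other 5 groups (Pearson's r across genes, which are not independent replicates). It held all 16 gut epithelium markers of a fixed list, EPCAM among them, above the range of the other 11 libraries, including the gut transcription factors CDX1 (48.5 FPKM) and CDX2 (55.3 FPKM), both listed at 0 in the other 11. It is therefore shown apart, and every test was made on the other 11 libraries, with each call of the 8 genes also given for all 12. ΔCRE cells at 0 h are then 1 library, replicate 2, which the fit assumes to vary as the other groups do. In the 11 libraries the 10 markers of basal, mesenchymal breast cancer lines, VIM among them, all had a mean of at least 1 FPKM. So did 7 of 9 hormone receptor and luminal breast markers, among them KRT19, at 32.5 to 106.5 FPKM. The hormone receptors ESR1 and PGR of that list were between 0 and 0.00894 FPKM. ETS1, part of whose element was deleted, was at 24.0 and 23.7 FPKM in WT cells at 0 h, 139.2 and 145.2 FPKM at 6 h and 36.2 and 39.7 FPKM at 24 h. In ΔCRE cells it was at 16.5 FPKM at 0 h, 62.8 and 62.2 FPKM at 6 h and 29.3 and 30.7 FPKM at 24 h, below the WT libraries of the same time point each time. The ΔCRE minus WT difference in log2(FPKM + 1) was -1.17 ± 0.0587 (SE) at 6 h (limma adjusted p = 2.04e-05, and 0.682 with all 12 libraries).

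Vimentin was by far the most abundant of the 8, with 1543 to 2539 FPKM in the 11 libraries, and TWIST1 and TWIST2 were listed at 0 in all of them. The other 5 genes lay between 1.08 and 12.3 FPKM. In WT cells at 0 h the order of levels was VIM, SNAI2, ZEB1 and EPCAM, followed by SNAI1 and ZEB2, whose ranges overlapped. At 6 h it was VIM, ZEB1 and ZEB2, then SNAI1 and EPCAM, which overlapped, with SNAI2 last. At 24 h it was VIM and ZEB1, then SNAI1 and EPCAM, which overlapped, then ZEB2, with SNAI2 again last. SNAI2 thus went from the second place to the lowest of the detected genes in WT cells. In ΔCRE cells at 6 h ZEB1, ZEB2 and SNAI2 followed VIM in that order, above EPCAM and SNAI1, which overlapped, and at 24 h the order was VIM, ZEB1, SNAI1, ZEB2, SNAI2 and EPCAM, with no overlap. The cadherin genes whose protein products the transition usually exchanges were both near 0. In the 11 libraries CDH1 was between 0 and 0.0318 FPKM and CDH2 (N-cadherin) between 0 and 0.0933 FPKM. FN1, the gene of fibronectin, was between 30.9 and 190.9 FPKM.

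**Figure D1:**
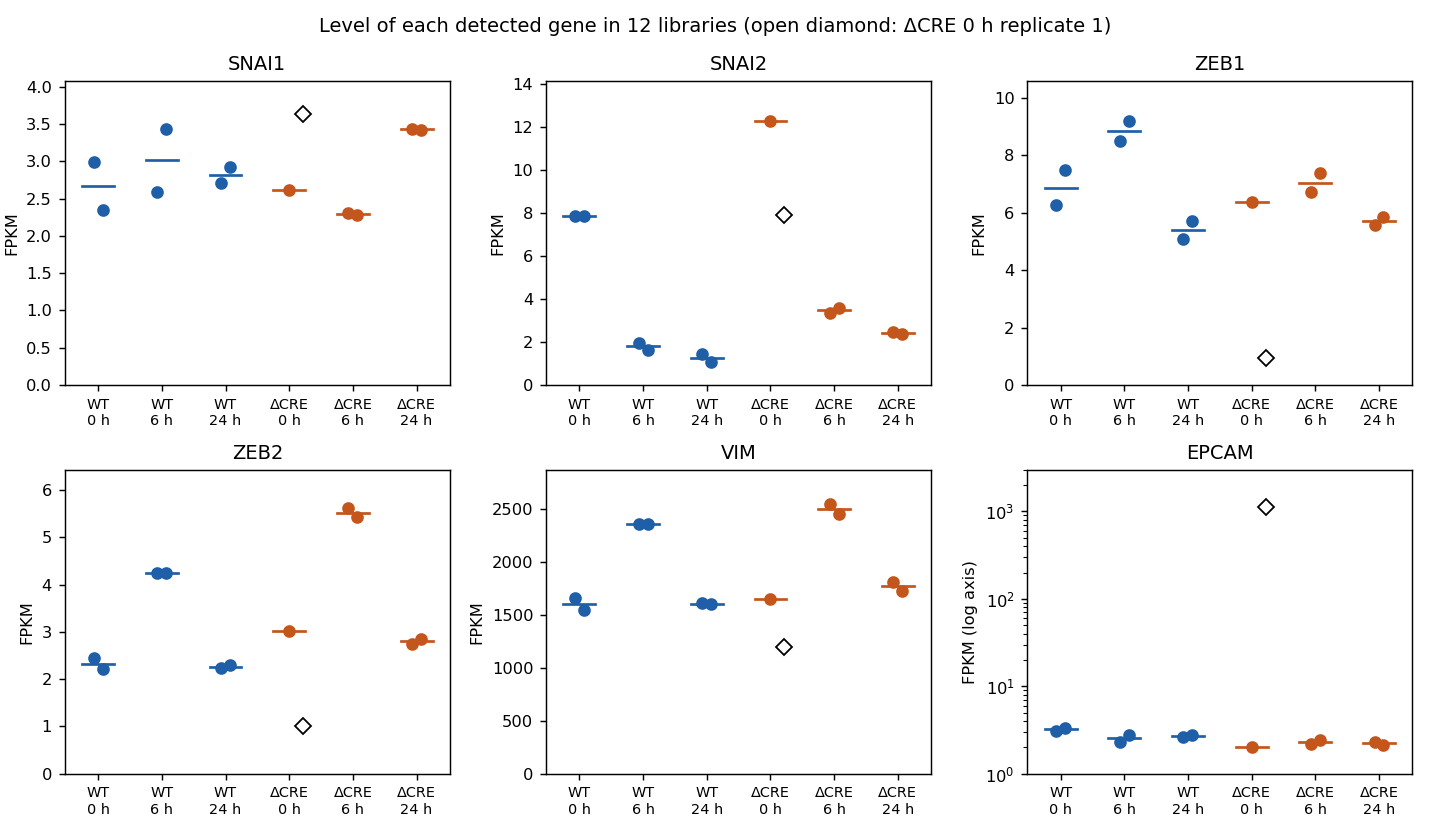
FPKM of the 6 detected genes by genotype and time of PMA/Ionomycin, 1 point per library, with group means as bars; the open diamond is ΔCRE 0 h replicate 1, and the EPCAM axis is logarithmic. SNAI2 is highest at 0 h in both genotypes, ZEB2 and VIM are highest at 6 h, and EPCAM is near 2 to 3 FPKM except in the diamond, at 1138.7 FPKM.

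Which of these genes respond to PMA/Ionomycin was asked in each genotype. Of the 8 genes, 6 had a mean of at least 1 FPKM and were tested, and 11256 features were tested in all. In WT cells 5 of the 6 changed between 0 h and 6 h: ZEB1, ZEB2 and VIM rose and SNAI2 and EPCAM fell, where 44.4% of all features tested changed. Between 0 h and 24 h, SNAI2 and ZEB1 fell (54.6% of all features changed), and between 6 h and 24 h SNAI2, ZEB1, ZEB2 and VIM fell (46.8% of all features changed). In ΔCRE cells ZEB2 and VIM rose and SNAI2 fell by 6 h (29.8% of all features changed), and SNAI2 alone of the 6 passed the test at 24 h, with a fall (41.5% of all features changed). From 6 h to 24 h, ZEB1, ZEB2, VIM and SNAI2 fell in ΔCRE cells and SNAI1 rose (49.6% of all features changed). The comparisons within a genotype share libraries. With all 12 libraries in the fit, SNAI2 remained called at 6 h and 24 h against 0 h in both genotypes, ZEB2 and VIM at 6 h in ΔCRE cells, and no other of these calls was kept. The ΔCRE 0 h mean then includes the library shown apart, with ZEB2 at 1.02 FPKM and VIM at 1199.5 FPKM. Replicate 2 had 3.01 and 1650 FPKM, so the ΔCRE rises of ZEB2 and VIM were measured there from a lower mean. In that fit the share of all features called was 7.34%, 10.5% and 4.98% in WT cells and 8.66%, 11.2% and 7.24% in ΔCRE cells, for 6 h against 0 h, 24 h against 0 h and 24 h against 6 h. P-values measure the spread between these libraries, and in bulk samples fewer cells of a kind and less RNA per cell cannot be told apart.

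SNAI2 (chromosome 8, 49830239 to 49833999, hg19, feature XLOC_021985) fell most. In WT cells it was at 7.85 and 7.86 FPKM at 0 h, 1.94 and 1.65 FPKM at 6 h and 1.45 and 1.08 FPKM at 24 h. All 4 stimulated WT libraries lay below both unstimulated ones, and the 24 h libraries lay below the 6 h libraries. The level at 6 h was 22.8% of that at 0 h, and the log2(FPKM + 1) difference was -1.67 ± 0.0945 (SE, limma adjusted p = 3.81e-06, and 0.00168 with all 12 libraries), the 35th lowest of the 11256 features. At 24 h the level was 16.1% of that at 0 h, with a difference of -1.97 ± 0.0945 (limma adjusted p = 1.33e-06, and 0.000897 with all 12 libraries). In ΔCRE cells SNAI2 was at 12.3 FPKM at 0 h in the 1 library, 3.37 and 3.57 FPKM at 6 h and 2.46 and 2.38 FPKM at 24 h. Both stimulated time points again lay below the unstimulated library, also below the 7.89 FPKM of the library shown apart. The differences from 0 h were -1.57 ± 0.116 at 6 h and -1.96 ± 0.116 at 24 h (limma adjusted p = 2.79e-05 and 6.96e-06, and 0.00624 and 0.00172 with all 12 libraries). The WT falls from 0 h kept their call in all 11 fits without 1 library, and the ΔCRE falls in the 10 fits that keep the 1 ΔCRE 0 h library. The further fall from 6 h to 24 h was smaller, by 0.31 in WT cells (limma adjusted p = 0.0279, and 0.460 with all 12 libraries) and by 0.39 in ΔCRE cells (limma adjusted p = 0.00966, and 0.301 with all 12 libraries). That fall in WT cells lost its call without WT 6 h replicate 1 (adjusted p = 0.153) or WT 24 h replicate 2 (0.170) and on the TPM scale (transcripts scaled to a fixed total per library, 0.0802), and that in ΔCRE cells without ΔCRE 6 h replicate 2 (0.0522).

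SNAI2 was higher in ΔCRE than in WT cells at every time point, with no overlap of libraries. The ΔCRE level was 1.57-fold the WT level at 0 h, 1.93-fold at 6 h and 1.91-fold at 24 h. At 6 h the difference was 0.68 ± 0.0945 (SE, 95% confidence interval 0.46 to 0.90, limma adjusted p = 0.00387), the 60th highest of 11256 features, and it kept its call in each fit without 1 library. At 24 h the difference was 0.60 ± 0.0945 (95% confidence interval 0.38 to 0.82, limma adjusted p = 0.00912). This call was lost without WT 24 h replicate 2 (adjusted p = 0.0596), ΔCRE 24 h replicate 1 (0.0613) or ΔCRE 24 h replicate 2 (0.0642). At 0 h, with 1 ΔCRE library, the difference was 0.59 ± 0.116 (95% confidence interval 0.32 to 0.85, limma adjusted p = 0.0495), which lost its call without any 1 of the WT 0 h, WT 6 h, ΔCRE 6 h and ΔCRE 24 h libraries (adjusted p from 0.0769 to 0.136) and on the TPM scale (0.0754). With all 12 libraries none of the 3 differences was called (adjusted p = 0.290, 0.451 and 0.782 at 0, 6 and 24 h). The library shown apart, at 7.89 FPKM, was 0.642 times the other ΔCRE 0 h library and close to the WT level.

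SNAI1 (chromosome 20, 48599513 to 48605420, feature XLOC_013714) moved little. In WT cells it was at 2.99 and 2.35 FPKM at 0 h, 2.59 and 3.43 FPKM at 6 h and 2.71 and 2.93 FPKM at 24 h, so the 3 groups overlapped. The 6 h minus 0 h difference in log2(FPKM + 1) was 0.13 (95% confidence interval -0.15 to 0.40, limma adjusted p = 0.420). In ΔCRE cells it was at 2.61 FPKM at 0 h, 2.31 and 2.28 FPKM at 6 h and 3.44 and 3.42 FPKM at 24 h. Both 24 h libraries lay above the others, and the rise from 6 h to 24 h was 1.49-fold, with a difference of 0.43 ± 0.119 (SE, limma adjusted p = 0.0173, and 0.201 with all 12 libraries). This call was lost without any 1 of the 4 stimulated ΔCRE libraries (adjusted p from 0.0599 to 0.0687). The ΔCRE minus WT difference was -0.28 at 6 h (95% confidence interval -0.55 to -0.0037, limma adjusted p = 0.202) and 0.21 at 24 h (-0.06 to 0.49, adjusted p = 0.354), and neither passed the test.

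The order of both SNAI genes turned with stimulation. The ratio of SNAI2 to SNAI1 FPKM was 2.62 and 3.35 in the WT libraries at 0 h, 0.747 and 0.481 at 6 h and 0.535 and 0.370 at 24 h. In ΔCRE cells it was 4.71 at 0 h, 1.46 and 1.57 at 6 h and 0.716 and 0.697 at 24 h. SNAI2 was thus the more abundant of the pair at 0 h in both genotypes and the less abundant at 24 h in both. At 6 h it was below SNAI1 in both WT libraries and above it in both ΔCRE libraries. The ratio was higher in ΔCRE than in WT cells at each time point, with no overlap, and was not tested on its own.

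**Figure D2:**
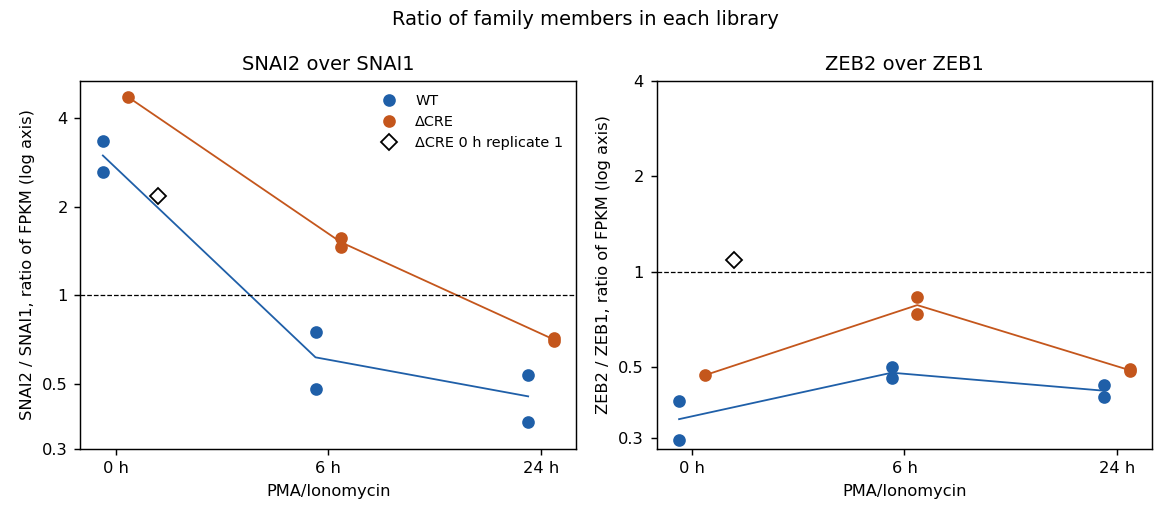
Ratio of SNAI2 to SNAI1 (left) and of ZEB2 to ZEB1 (right) in FPKM on log axes, by hours of PMA/Ionomycin; points are libraries, lines join group means and the diamond is ΔCRE 0 h replicate 1. SNAI2/SNAI1 falls from 2.98 to 0.452 in WT means, and among the 11 libraries ZEB2/ZEB1 is highest at 6 h in ΔCRE cells, at a mean of 0.785, below the diamond at 1.09.

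ZEB2 (chromosome 2, 145141942 to 145278465) peaked at 6 h in both genotypes. In WT cells it was at 2.45 and 2.21 FPKM at 0 h, 4.25 and 4.25 FPKM at 6 h and 2.23 and 2.30 FPKM at 24 h. The 6 h libraries lay above all other WT libraries, and 24 h overlapped with 0 h. The mean rose from 2.33 FPKM at 0 h to 4.25 FPKM at 6 h, with a difference in log2(FPKM + 1) of 0.66 ± 0.0707 (SE, limma adjusted p = 0.000148, and 0.226 with all 12 libraries). In ΔCRE cells ZEB2 was at 3.01 FPKM at 0 h, 5.61 and 5.42 FPKM at 6 h and 2.75 and 2.84 FPKM at 24 h. The rise at 6 h was 1.83-fold there, with a difference of 0.70 ± 0.0866 (limma adjusted p = 0.000549, and 0.0346 with all 12 libraries). The return from 6 h to 24 h was by 0.68 in WT cells and by 0.78 in ΔCRE cells (adjusted p = 0.000142 and 6.36e-05, and 0.219 and 0.142 with all 12 libraries). The WT rise and both returns kept their calls in all 11 fits without 1 library, and the ΔCRE rise in the 10 fits that keep the 1 ΔCRE 0 h library.

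In the 11 libraries ZEB2 was also higher in ΔCRE than in WT cells at each time point, with no overlap, and passed the test at 6 h, where the ΔCRE level was 1.30-fold the WT level (difference 0.31 ± 0.0707, SE, limma adjusted p = 0.0285, and 1 with all 12 libraries). That call was lost without any 1 of the 4 libraries at 6 h (adjusted p from 0.0847 to 0.135) and without WT 24 h replicate 1 or 2 (0.0510 and 0.0509). The differences of 0.27 at 0 h (95% confidence interval 0.07 to 0.47) and 0.22 at 24 h (0.06 to 0.38) did not pass it (limma adjusted p = 0.193 and 0.120). The library shown apart was at 1.02 FPKM, below both WT libraries at 0 h, and with all 12 libraries the 0 h difference turned to -0.23 (limma adjusted p = 0.534). The antisense transcript ZEB2-AS1 shares the locus. It was at 0.440 and 0.439 FPKM in WT libraries at 6 h and at 1.91 and 1.41 FPKM in ΔCRE libraries at 6 h, and at 0 to 0.664 FPKM in the other 7 of the 11, so it too was highest at 6 h in ΔCRE cells. Its mean was under 1 FPKM and it was not tested. The kit marks strand, but whether strand was used in the quantification is not given in the sources used here, so its part in the ZEB2 values was not tested.

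ZEB1 (chromosome 10, 31608101 to 31818742) had the higher level of the pair. In WT cells it was at 6.27 and 7.49 FPKM at 0 h, 8.50 and 9.21 FPKM at 6 h and 5.08 and 5.70 FPKM at 24 h, with no overlap of the 3 groups. It rose 1.29-fold by 6 h, with a difference of 0.33 ± 0.0938 (SE, limma adjusted p = 0.0213), and at 24 h was 78.4% of the 0 h level, with a difference of -0.30 ± 0.0938 (adjusted p = 0.0253). The change from 6 h to 24 h was larger, at -0.63 ± 0.0938 (limma adjusted p = 0.000916). The adjusted p of these was 0.870, 0.810 and 0.599 with all 12 libraries. On the TPM scale the rise at 6 h (0.23, limma adjusted p = 0.157) and the fall at 24 h (-0.32, limma adjusted p = 0.0553) were not called, while the fall from 6 h was (0.00725). The rise was not called without WT 0 h replicate 1 (adjusted p = 0.117), WT 6 h replicate 1 (0.0504) or WT 6 h replicate 2 (0.122), nor the fall at 24 h without WT 0 h replicate 2 (0.160) or WT 24 h replicate 1 (0.153). In ΔCRE cells ZEB1 was at 6.39 FPKM at 0 h, 6.72 and 7.38 FPKM at 6 h and 5.59 and 5.85 FPKM at 24 h. The 6 h minus 0 h difference there was 0.12 (95% confidence interval -0.14 to 0.39, limma adjusted p = 0.463), and on the TPM scale it was -0.0010. The fall from 6 h to 24 h was by 0.26 (adjusted p = 0.0474, and 0.881 with all 12 libraries), and it lost its call in each of the 8 fits without 1 stimulated library (adjusted p from 0.0557 to 0.213) and on the TPM scale (0.255). ZEB1 did not pass the test between genotypes at any time point, and the 6 h difference was -0.29 (95% confidence interval -0.51 to -0.08, limma adjusted p = 0.0940). The ratio of ZEB2 to ZEB1 FPKM was 0.391 and 0.295 at 0 h, 0.500 and 0.461 at 6 h and 0.439 and 0.403 at 24 h in WT cells, and 0.471, then 0.835 and 0.735, then 0.492 and 0.486 in ΔCRE cells. ZEB1 was thus the more abundant of the pair in each of the 11 libraries.

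TWIST1 (chromosome 7, 19155091 to 19157295) and TWIST2 (chromosome 2, 239756673 to 239832237) were listed at 0 FPKM in all 11 libraries, so stimulation and genotype could not be compared for them. TWIST2 was also listed at 0 in the library shown apart, where TWIST1 was at 0.231 FPKM.

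VIM (chromosome 10, 17270258 to 17279592) also peaked at 6 h in both genotypes. In WT cells it was at 1656 and 1543 FPKM at 0 h, 2354 and 2358 FPKM at 6 h and 1614 and 1597 FPKM at 24 h. In ΔCRE cells it was at 1650 FPKM at 0 h, 2539 and 2447 FPKM at 6 h and 1803 and 1728 FPKM at 24 h. The 4 libraries at 6 h lay above the other 7, and WT 24 h overlapped with WT 0 h. The level at 6 h was 1.47-fold that at 0 h in WT cells and 1.51-fold in ΔCRE cells, with differences of 0.56 ± 0.0563 and 0.59 ± 0.0690 (SE, limma adjusted p = 0.000104 and 0.000391, and 0.103 and 0.0246 with all 12 libraries). By 24 h it had fallen from 6 h by 0.55 and by 0.50 on the log2 scale (limma adjusted p = 0.000134 and 0.000193, and 0.116 and 0.137 with all 12 libraries), and these 4 calls were kept in each fit without 1 library, for the ΔCRE rise in the 10 that keep the 1 ΔCRE 0 h library. Against 0 h, the 24 h difference was 0.01 in WT cells (95% confidence interval -0.12 to 0.13) and 0.10 in ΔCRE cells (-0.06 to 0.25). The ΔCRE level of VIM was 1.10-fold the WT level at 24 h and 1.06-fold at 6 h, without overlap at either, and neither difference passed the test (limma adjusted p = 0.208 and 0.432).

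EPCAM (chromosome 2, 47596287 to 47614167, at a locus that the table gives together with MIR559) was low in all 11 libraries. In WT cells it was at 3.12 and 3.38 FPKM at 0 h, 2.32 and 2.74 FPKM at 6 h and 2.62 and 2.76 FPKM at 24 h, with both unstimulated libraries above the other 4. The level at 6 h was 77.9% of that at 0 h, with a difference of -0.27 ± 0.0897 (SE, limma adjusted p = 0.0388, and 1 with all 12 libraries). The call was lost without WT 0 h replicate 1 or 2, WT 6 h replicate 1, WT 24 h replicate 1 or 2 or ΔCRE 24 h replicate 1 or 2 (adjusted p from 0.0518 to 0.205), and the 24 h difference of -0.20 did not pass the test (adjusted p = 0.0831). In ΔCRE cells EPCAM was at 2.02 FPKM at 0 h, 2.19 and 2.45 FPKM at 6 h and 2.30 and 2.15 FPKM at 24 h. The unstimulated ΔCRE library was the lowest of the 11. The ΔCRE minus WT difference at 0 h was -0.49 ± 0.110 (95% confidence interval -0.75 to -0.24, limma adjusted p = 0.0702), with the sign turned to 3.79 with all 12 libraries, and the differences at 6 h and 24 h were -0.09 and -0.19 (adjusted p = 0.610 and 0.264).

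**Figure D3:**
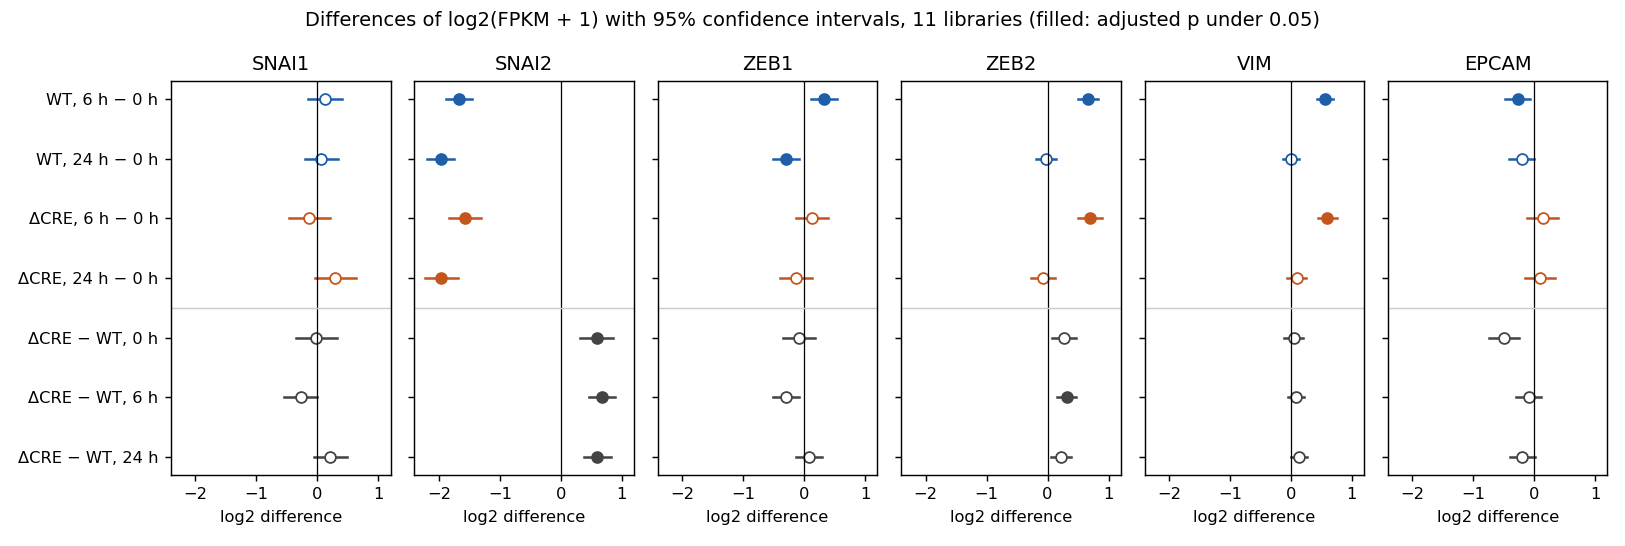
Differences in log2(FPKM + 1) from limma on 11 libraries for 7 comparisons in 6 genes, with 95% confidence intervals; filled points have an adjusted p under 0.05, blue is WT, orange ΔCRE and grey ΔCRE minus WT. SNAI2 is lower after stimulation by 1.57 to 1.97 and higher in ΔCRE cells by 0.59 to 0.68, while the SNAI1 intervals include or lie close to 0.

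Between genotypes, 1 of the 6 tested genes was higher in ΔCRE cells at 0 h (SNAI2, where 0.657% of all features were called higher), 2 at 6 h (SNAI2 and ZEB2, 3.62% of all features) and 1 at 24 h (SNAI2, 2.35% of all features), and none was called lower (1.03%, 6.22% and 3.97% of all features at 0, 6 and 24 h). The median ΔCRE minus WT difference of the 6 genes was 0.01, -0.0037 and 0.18 at 0, 6 and 24 h, against 0.01 at each time for all features tested. At an unadjusted p under 0.05, 3, 4 and 3 of the 6 genes differed, where 15.0%, 24.0% and 21.2% of all features did. With all 12 libraries none of the 6 was called at any time point, and 0.146%, 0.171% and 0.146% of all features were. The comparisons with WT at the 3 time points use different libraries. Whether the response to PMA/Ionomycin itself differed between genotypes was tested with the interaction terms, and 0 of the 6 genes passed at 6 h against 0 h, at 24 h against 0 h or at 24 h against 6 h with limma (0.267%, 0.275% and 0.160% of all features passed), with 1, 0 and 2 at an unadjusted p under 0.05 (8.08%, 8.21% and 6.98% of all features). The 1 at 6 h was EPCAM, with a ΔCRE minus WT difference of the response of 0.41 (95% confidence interval 0.08 to 0.73, limma adjusted p = 0.482). The 2 between 24 h and 6 h were SNAI1, at 0.49 (0.11 to 0.88, limma adjusted p = 0.592), and ZEB1, at 0.37 (0.06 to 0.67, limma adjusted p = 0.642). For SNAI2 the difference of the response was 0.09 at 6 h (95% confidence interval -0.25 to 0.43) and 0.01 at 24 h (-0.33 to 0.35), so differences of up to 0.43 and 0.35 lie within the intervals.

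By the smallest root mean square difference of centred log2(FPKM + 1) over the 11 libraries, the 3 features most like SNAI2 were ID4, an inhibitor of helix-loop-helix DNA binding (0.154), RHOB, a small GTPase (0.224), and PRKAG2, a subunit of AMP-activated kinase (0.272). ID4 had group means of 6.83, 1.02 and 0.997 FPKM in WT cells and 9.72, 2.25 and 1.69 FPKM in ΔCRE cells at 0, 6 and 24 h. Like SNAI2, it lay highest in the unstimulated ΔCRE library. The 3 features most like ZEB2 were SLC3A2, the heavy chain of amino acid transporters (0.0814), MGAT2, an enzyme of N-glycan synthesis (0.0863), and CRELD2, a protein of the endoplasmic reticulum (0.0896). CRELD2 had group means of 17.9, 30.6 and 18.8 FPKM in WT cells and 21.0, 39.0 and 23.1 FPKM in ΔCRE cells. The other 4 detected genes varied by less than 1 on the log2 scale over the 11 libraries and were not matched.

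Genes of the same pathway were followed through fixed lists. Of 16 tested EMT regulators outside the 8 genes, 4 rose and 9 fell in WT cells by 6 h (median difference -0.23, against -0.0014 for all features, of which 23.3% rose and 21.1% fell). HMGA2, a chromatin protein known to act upstream of SNAI factors, rose from 15.1 to 38.3 FPKM (difference 1.29 ± 0.0584, limma adjusted p = 9.13e-07), and KLF4, a zinc-finger factor, from 6.72 to 12.6 FPKM. ID4 fell from 6.83 to 1.02 FPKM and ID2, of the same family, from 8.02 to 1.13 FPKM. These were the 4 called with all 12 libraries. Between genotypes 3 of the 16 were higher and 0 lower in ΔCRE cells at 6 h (3.62% and 6.22% of all features), among them ID4 (2.25 against 1.02 FPKM) and RUNX2 (2.85 against 1.82 FPKM), none of which was called with all 12 libraries (1 at an unadjusted p under 0.05), and 0 passed at 24 h in limma (3 at an unadjusted p under 0.05).

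Of 27 tested corepressors and factors of protein stability that act on SNAI and ZEB proteins, 4 rose and 3 fell by 6 h in WT cells (median -0.02, with 23.3% of all features higher and 21.1% lower). The LIM proteins that bind SNAI factors moved apart, with WTIP rising from 2.66 to 6.51 FPKM and AJUBA falling from 46.3 to 23.4 FPKM. CTBP2, a corepressor of ZEB proteins, rose from 20.5 to 33.3 FPKM. WTIP and CTBP2 were the 2 called with all 12 libraries, and on the TPM scale 4 rose and 7 fell. At 24 h 4 rose and 11 fell (median -0.14, against -0.02 for all features, of which 26.5% rose and 28.2% fell), with LOXL2, a lysyl oxidase that stabilises SNAI1, at 25.6 FPKM against 50.7 FPKM at 0 h (adjusted p = 0.143 with all 12 libraries). Between genotypes LOXL2 was lower in ΔCRE cells at 6 h (38.7 against 49.5 FPKM) and at 24 h (19.5 against 25.6 FPKM), but neither was called with all 12 libraries (adjusted p = 1 at both).

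Of 20 tested epithelial genes, 4 rose and 8 fell by 6 h in WT cells (median -0.17, with 23.3% of all features higher and 21.1% lower), and 7 rose and 5 fell by 24 h (median 0.01, with 26.5% and 28.2%). In the fit of all 12, limma called 1 of 31 tested at 24 h, a fall, and 0 at 6 h, where 3 had an unadjusted p under 0.05. Claudin-1 (CLDN1), a tight junction protein, rose from 0.857 to 10.8 FPKM by 6 h, and KRT7, a simple-epithelial keratin, fell from 444.1 to 112.7 FPKM by 24 h. KRT7 kept its call with all 12 libraries and CLDN1 did not (adjusted p = 0.000287 and 0.0975). CLDN7, which binds EPCAM, was lower in ΔCRE cells at 6 h (1.43 against 4.01 FPKM) and 24 h (7.54 against 18.1 FPKM), with an adjusted p of 1 at both times with all 12 libraries. Of 27 tested mesenchymal genes, 10 rose and 10 fell by 6 h (median 0.01), and 12 rose and 13 fell by 24 h (median -0.06), against the same shares of all features. In the fit of all 12, where 31 were tested, 6 rose and 1 fell by 6 h and 4 rose and 3 fell by 24 h. COL5A1, a fibrillar collagen chain, fell from 11.5 to 3.44 FPKM by 24 h. Against WT cells, 1 mesenchymal gene was higher and 8 lower in ΔCRE cells at 6 h (3.62% and 6.22% of all features), and at 24 h 1 was higher and 7 were lower (2.35% and 3.97%). The 1 higher at 6 h was FBN1, at 5.43 against 4.41 FPKM. The 1 higher at 24 h was FN1, at 190.7 against 126.8 FPKM (difference 0.59 ± 0.0682, limma adjusted p = 0.00261, and 0.919 with all 12 libraries). CDH11, a mesenchymal cadherin, was at 1.15 against 13.4 FPKM at 6 h and at 1.84 against 21.4 FPKM at 24 h (differences -2.74 and -2.98, limma adjusted p = 1.31e-05 and 1.30e-05), and it was the one mesenchymal gene still called at both times with all 12 libraries.

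Among 9 tested intermediate filament and linker genes other than VIM, 2 rose and 6 fell by 6 h in WT cells (median -0.35, with 23.3% of all features higher and 21.1% lower), while VIM rose. In the fit of all 12, 0 of 11 tested rose and 2 fell. KRT80 fell from 47.4 to 9.68 FPKM, and the linkers MACF1 (15.3 to 18.4 FPKM) and PLEC (92.6 to 108.9 FPKM) rose. On the TPM scale 0 of the 9 rose and 7 fell, so the rise of the linkers depended on the scale. None of the 9 passed the test between genotypes at 6 h or 24 h in limma (3 and 2 at an unadjusted p under 0.05, and 0 with all 12 libraries). Of 11 tested partners and proteases of EPCAM, 7 rose and 2 fell by 6 h (median 0.31, against the same shares of all features), among them ADAM17, a sheddase (10.7 to 17.7 FPKM), while EPCAM itself fell. On the TPM scale 4 rose and 3 fell, and with all 12 libraries limma called 0 (1 at an unadjusted p under 0.05). Of 10 entries in the table for miRNAs or antisense transcripts of SNAI and ZEB genes, 7 were listed at 0 in the 11 libraries and 1 was tested. This was SNAI3-AS1, which rose by 24 h in WT cells from 0.691 to 1.35 FPKM (limma adjusted p = 0.0275, and 0.382 with all 12 libraries). Polyadenylated libraries do not measure mature miRNAs. The epithelial and the EPCAM lists share genes, CLDN7 among them.

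In the library shown apart, EPCAM was at 1138.7 FPKM, 447-fold the mean of the other 11 libraries and 565-fold the other ΔCRE 0 h library. ZEB1 was at 0.932 FPKM, 13.8% of the mean of the other 11, ZEB2 at 1.02 FPKM (30.0%) and VIM at 1199.5 FPKM (62.0%), each below the lowest of the other 11 also on the TPM scale and after quantile normalization. SNAI2, at 7.89 FPKM, lay within the range of the others. SNAI1, at 3.64 FPKM, lay above it in FPKM, below it on the TPM scale and within it after quantile normalization. The epithelial list was above the range of the other 11 in 32 of 36 genes, with CDH1 at 52.3 FPKM, against 15 above and 11 below of 34 mesenchymal genes, where 35.0% of all features were above and 36.1% below. The summed level of the 16 gut epithelium markers was 13222 FPKM, against 3.01 to 4.47 FPKM in the others, 5 of the 16 being listed at 0 in all of these. The summed level of 8 fibroblast markers was 79.0 FPKM, against 1.51 to 3.31 FPKM, with 7 of the 8 above the range. Above the range were also 5 of 6 blood cell markers, 3 of 5 endothelium markers and 5 of 9 hormone receptor and luminal breast markers. Some of these were near 0, since 3 of the 6, 1 of the 5 and 7 of the 9 were at 1 FPKM or more in this library. Of the 10 markers of basal, mesenchymal breast cancer lines, 5 were below the range and 1 was above it. The part of gut, fibroblast, blood or endothelial cells in the EPCAM, ZEB1, ZEB2 and VIM values of this library was not tested. No p-value is given, since it is 1 library.

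**Figure D4:**
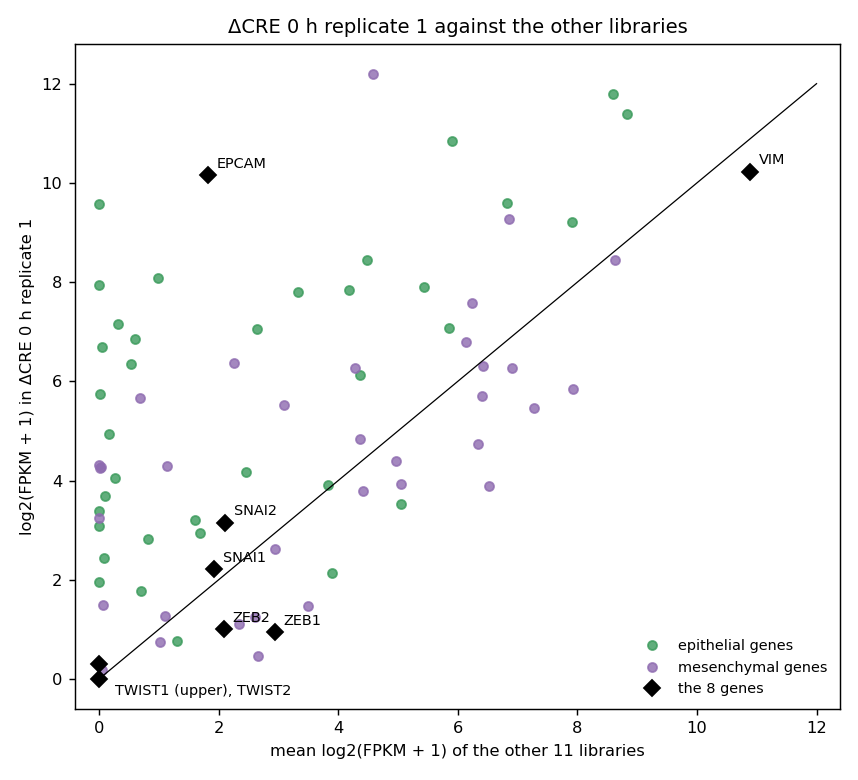
Level in log2(FPKM + 1) in ΔCRE 0 h replicate 1 (vertical) against the mean of the other 11 libraries (horizontal) for the 8 genes (black), 36 epithelial (green) and 34 mesenchymal genes (purple); the line marks equal levels. EPCAM lies 8.34 above the mean of the others, and ZEB1, ZEB2 and VIM lie below the line.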

How the data were processed

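The 12 RNA-sequencing libraries fall into 6 groups by genotype and hours of stimulation, read from the labels together with the replicate number. The authors aligned the reads to hg19 (TopHat), estimated FPKM per gene (Cufflinks) and deposited 1 FPKM table of 24331 features with a column for each library. Per the labels, FastQC, cutadapt, Bowtie2 and Cuffdiff were also used. The annotation and any scaling between libraries are not given in the sources used here. A pair of column names with a misplaced digit was matched through the group line of the table's header. The members and lists were chosen with earlier results of these data known.

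The deposited FPKM values were put on the scale log2(FPKM + 1), which understates changes of genes with low FPKM. Features with a mean of at least 1 FPKM over 11 libraries (11256) entered a limma 3.58.1 fit (R 4.3.3, lmFit, eBayes with trend) of 6 groups, with ΔCRE 0 h replicate 1 left out. Benjamini-Hochberg adjustment covered all of them, and an adjusted p under 0.05 was called. The script was tested on simulated data. FPKM keeps no depth, so no counting interval was computed. Named genes were the 8 genes, ETS1, HPRT1, CDH1, CDH2, FN1 and, per list, up to 2 of the highest and 2 of the lowest called differences without overlap between groups, of which examples are printed. Alternatives were a fit of all 12 libraries, pseudocount 0.1, a fit without filter, a minimum mean of 5 FPKM, quantile normalization, TPM, separate fits, eBayes without trend, a block for the replicate number and leaving out each library. Promoters came from RefSeq. Reads, Cuffdiff output and protein sequences were not analysed here.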

Additional observations from a re-analysis of the deposited data

Results flagged for a closer look

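The library labelled ΔCRE 0 h replicate 1 was left out of the comparisons on 11 libraries, and 3 of the 8 genes lay above the range of the other 11 libraries there. EPCAM was at 1138.72 FPKM, against a highest value of 3.38 FPKM in the others. TWIST1 was at 0.2306 FPKM, where all others listed it at 0. SNAI1 was at 3.63817 FPKM, against 2.28 to 3.44 FPKM in the others, and this order turned on the TPM scale. All 16 gut epithelium markers were above the range of the other libraries in this library, and their part in these values was not tested. With 2 libraries or fewer per group, no group could be searched for single outlying samples, and no difference of a response between genotypes passed the test for these genes.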

How the results depend on the processing

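Of 24 called results of the 8 genes, 18 lost the call with all 12 libraries, 9 with separate fits, 5 on the TPM scale, 3 each with no filter and quantile normalization, 1 with a pseudocount of 0.1 and 0 with the replicate block or eBayes without trend. None of the 24 reversed. Comparisons that do not use ΔCRE 0 h had the same differences with all 12 libraries. For WT 6 h against 0 h these were 0.66 for ZEB2 and 0.56 for VIM. For such comparisons that fit changed the estimate of spread and the set of features tested. A mean FPKM of at least 5 left 2 of the genes, ZEB1 and VIM, and 1 of 8 calls was lost. Whether the replicate numbers pair the samples is not given in the sources used here. The correlation of replicate differences was between -0.07 and 0.20 over 10 pairs of groups, and over 0.1 in 2 of them. Low correlations across features cannot exclude a pairing. With the replicate block, 1805 features were called for ΔCRE against WT at 6 h and 1407 at 24 h, against 1107 and 712 without it.

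With all 12 libraries the number of genes called fell to 1 for WT 6 h and WT 24 h against 0 h and to 0 for 24 h against 6 h in both genotypes and for ΔCRE against WT at 0, 6 and 24 h. With a mean FPKM of at least 5 it was 2, 1 and 2 for the WT comparisons (6 h against 0 h, 24 h against 0 h, 24 h against 6 h), 1, 0 and 1 for the same in ΔCRE cells and 0 for each genotype comparison. With separate fits it was 3 and 1 for WT 6 h and 24 h against 0 h, and 0, 1 and 0 for ΔCRE against WT at 0, 6 and 24 h. TPM gave 1 for WT 24 h against 0 h. For ΔCRE against WT at 0 h it was 0 with a pseudocount of 0.1, no filter, quantile normalization or TPM, and 2 with the replicate block or eBayes without trend, EPCAM being added. The block also added ZEB1 at 6 h (3 genes called), and quantile normalization added EPCAM for WT 24 h against 0 h.

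Without 1 library, the number of genes called was 3 to 5 (WT 6 h against 0 h), 1 to 2 (WT 24 h against 0 h), 3 to 4 (WT 24 h against 6 h), 2 to 5 (ΔCRE 24 h against 6 h), and 0 to 1, 1 to 2 and 0 to 1 (ΔCRE against WT at 0, 6 and 24 h), and it was constant elsewhere.

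Signs turned for uncalled values only. With all 12 libraries, ΔCRE against WT at 0 h became 0.16 (SNAI1), -0.23 (ZEB2), -0.18 (VIM) and 3.79 (EPCAM), ΔCRE 24 h against 0 h 0.83 (ZEB1), 0.42 (ZEB2) and -4.19 (EPCAM), ΔCRE 6 h against 0 h -4.14 (EPCAM), the 6 h interaction 0.76 (ZEB1) and -3.88 (EPCAM) and the 24 h interaction 0.44 (ZEB2) and -3.98 (EPCAM). TPM gave 0.027 for WT (SNAI1) and 0.032 for ΔCRE (EPCAM) 24 h against 6 h, -0.0010 for ΔCRE 6 h against 0 h (ZEB1) and -0.66 for SNAI1 in the library shown apart. Quantile normalization gave -0.029 for WT 24 h against 0 h (VIM) and -0.021 for WT 24 h against 6 h (EPCAM), and the replicate block -0.022 for the 24 h interaction (SNAI2). Leaving out 1 library in turn gave a range across 0 for 14 uncalled values: for SNAI1 -0.026 to 0.28 (WT 6 h against 0 h), -0.066 to 0.19 (WT 24 h against 0 h), -0.22 to 0.087 (WT 24 h against 6 h) and -0.15 to 0.11 (ΔCRE against WT at 0 h), for SNAI2 -0.10 to 0.13 (24 h interaction) and -0.20 to 0.036 (24 h against 6 h interaction), for ZEB1 -0.20 to 0.023 (ΔCRE against WT at 0 h), for ZEB2 -0.078 to 0.025 (WT 24 h against 0 h) and -0.0094 to 0.094 (6 h interaction), for VIM -0.045 to 0.057 (WT 24 h against 0 h), -0.0049 to 0.097 (ΔCRE against WT at 0 h) and -0.016 to 0.086 (6 h interaction), and for EPCAM -0.021 to 0.15 (WT 24 h against 6 h) and -0.097 to 0.015 (ΔCRE 24 h against 6 h).

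TPM moved the median of all features to -0.12 for WT and -0.13 for ΔCRE 6 h against 0 h, and the share of calls that were higher from 52.5% to 35.0% and from 56.4% to 31.8%. It moved that share from 43.7% to 64.3% (WT) and from 44.6% to 60.7% (ΔCRE) for 24 h against 6 h, and from 37.2% to 24.7% for ΔCRE against WT at 24 h. FPKM keeps no depth, so precision at low levels, as of SNAI1, SNAI2 and EPCAM after stimulation, rests on 2 libraries per group.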
